A study of Homo sapiens with 6 samples.

Results

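Expression of 9 genes of lactate export and pH regulation was compared in A2780 cells with and without recombinant human CRMP2. They were the monocarboxylate transporter genes SLC16A1, SLC16A3 and SLC16A7, their chaperone BSG, the carbonic anhydrases CA2, CA9 and CA12, and the sodium bicarbonate cotransporters SLC4A4 and SLC4A7. They were taken by symbol from the 44591 genes listed in the count tables, and all 9 were present. A2780 is a human ovarian cancer cell line, labelled wild type, and each group is therefore a model of 1 line grown in medium with fetal serum. Of the 6 libraries, 3 were from untreated cells and 3 were from cells that had received 40 ng/ml of the protein (r-CRMP2) for 48 h. CRMP2, the product of DPYSL2, is a cytosolic protein that binds tubulin, and the study asked what it does when it reaches ovarian cancer cells from outside. The labels do not say whether the libraries of a group came from separate cultures, so p-values measure the spread between these libraries, which may be technical.

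Cells that ferment glucose turn pyruvate into lactate and must pass the lactate and its proton out of the cell. The monocarboxylate transporters carry the 2 together, and basigin (BSG) brings MCT1 and MCT4 to the plasma membrane. Carbonic anhydrases interconvert carbon dioxide and bicarbonate, with CA9 and CA12 acting on the outer face of the membrane and CA2 in the cytosol, while the SLC4 cotransporters bring bicarbonate in. SLC16A3 and CA9 are textbook targets of the hypoxia-inducible factors.

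Each library held between 21888530 and 25711353 counts. TMM, the scaling that sets library totals so that most genes show little change, gave factors of 1.10 to 1.12 in the untreated libraries and 0.878 to 0.922 in the r-CRMP2 libraries. With library size alone, log2 fold changes were lower by 0.31 at the median, and that of the 16222 genes kept by the count filter moved from -0.03 to -0.34. The share of counts on mitochondrial genes was 6.19% to 6.59% in untreated and 3.76% to 4.10% in r-CRMP2 libraries, and its part in the results was not tested. Marker genes were read to check the labelled cell type, and in each list 1 gene took most of the change in the sum, so sums without it are given too, a choice made after the values were seen. The list of 10 epithelial and ovarian markers included VIM, a mesenchymal gene that also marks fibroblasts, and 8 had at least 1 CPM (counts scaled to a common total), with CDH1 and WT1 below. The list summed to 4640 to 4722 CPM in untreated and 5671 to 6070 CPM in r-CRMP2 libraries, and without VIM to 3192 to 3268 and 3204 to 3469.6 CPM. Nearly all of that was the keratins KRT7, KRT8 and KRT18. MUC16 had a mean of 42.7 CPM in untreated and 33.2 CPM in r-CRMP2 libraries, and EPCAM, KRT19 and PAX8 were lower still. The list thus shows keratin expression and does not by itself settle the ovarian label. With TMM, KRT18 and VIM were called higher and KRT7 and MUC16 lower, and the KRT18 call was lost with library size alone. Of 10 fibroblast markers, 9 had at least 1 CPM, with FAP below, and they summed to 590.0 to 661 CPM and 522 to 545 CPM, but without COL1A1 to 195 to 203 and 204 to 237 CPM. COL1A1 and PDGFRB were called lower, and COL1A2, LUM, PDGFRA and THY1 were called higher with TMM and not with library size alone. Of 8 leukocyte markers, 3 had at least 1 CPM, with PTPRC, CD3E, CD14, LYZ and ITGAM below, and they summed to 26.0 to 32.3 CPM and 78.1 to 84.9 CPM, or without CD68 to 4.75 to 6.54 and 6.32 to 7.03 CPM. The part of these genes in the results was not tested.

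Most of the 9 genes were higher after r-CRMP2, and the largest rises were those of the 2 membrane-bound carbonic anhydrases. Of the 8 genes with enough counts to be tested, 6 were called higher (SLC16A1, SLC16A3, BSG, CA9, CA12 and SLC4A7), 1 was called lower (SLC16A7) and SLC4A4 did not pass (edgeR's quasi-likelihood test, Benjamini-Hochberg adjusted p under 0.05). Over all genes tested, 28.2% were called higher and 30.1% lower. The 9 genes thus leaned to the higher side more than genes at large, a description for which no test was made. CA9 and CA12 also passed a log2 fold change of 1, as did 5.12% of all genes on the higher side, 8.86% on the lower side and 14.0% on either. Their median log2 fold change was 0.63, beside -0.03 over all genes tested. Together the 9 genes took 0.318% to 0.342% of all counts in untreated and 0.499% to 0.530% in r-CRMP2 libraries. Because RNA was taken from whole cultures, a larger share of cells with a transcript and more of it per cell cannot be told apart.

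**Figure D1:**
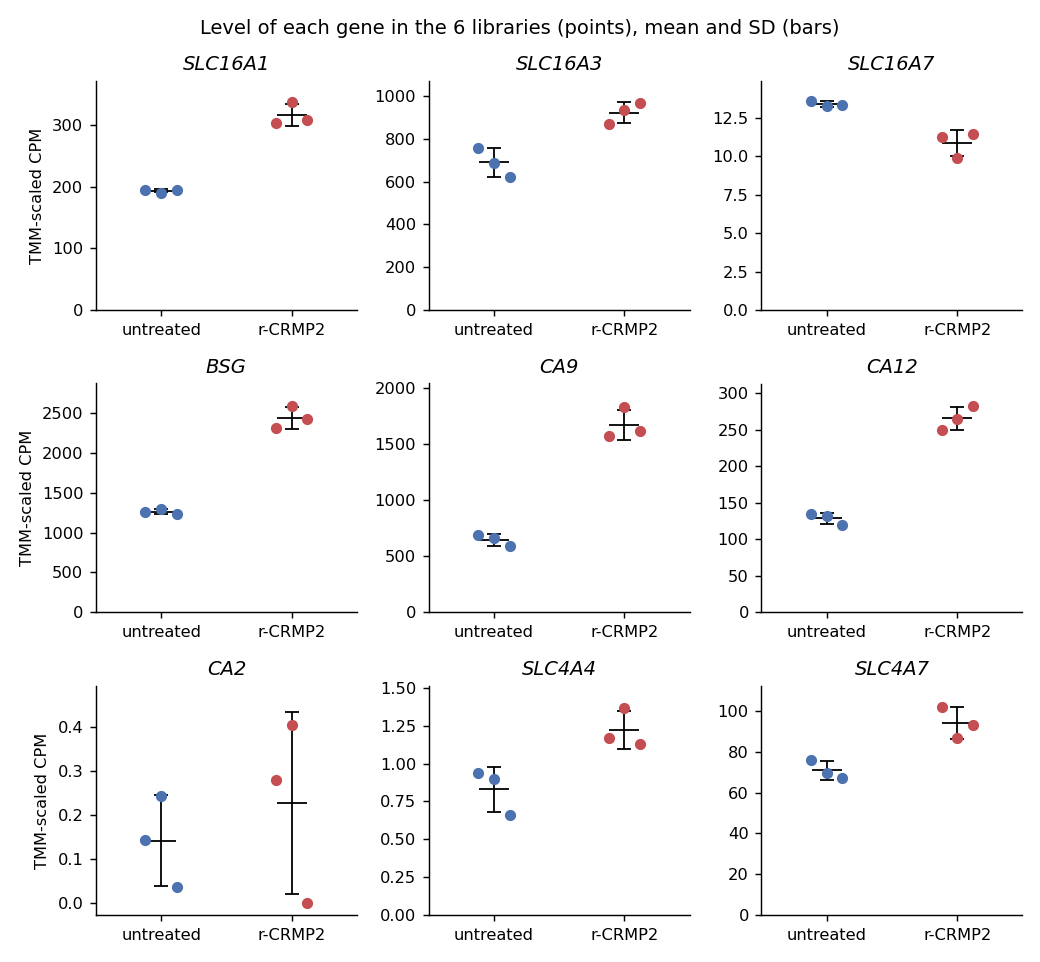
TMM-scaled CPM of the 9 genes (vertical axes, 1 scale per gene) in the 3 untreated and 3 r-CRMP2 libraries. Points are libraries, horizontal bars are means and error bars are SDs. All r-CRMP2 libraries lie above all untreated ones in 7 genes and below them in SLC16A7, and the groups overlap in CA2.

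Promoters of these genes, whichever way they moved, were read for ACGTG, 1 form of the core of the hypoxia response element. This was done because SLC16A3 and CA9 are textbook targets of the factors that bind it. The windows were the 250 bases upstream of each RefSeq transcript start (GRCh38.p14), and 7 of the 9 genes had at least 1 window, with 18 windows in all. SLC16A1 and CA2 had none. ACGTG, searched on both strands so that CACGT marks it on the reverse strand, was found in 3 windows, 1 each of CA9, SLC16A3 and BSG. Over all 35116 windows 18.5% held it, and of 27305 genes 21.7% held it in at least 1 window. Those 3 windows follow, with that of CA12, which also passed both thresholds and has no match to ACGTG. The form of the core that starts with G, GCGTG, was not searched or counted. The windows of CA12 (cacgc, on the reverse strand) and BSG (gcgtg) hold it, so the absence of a match does not mean that the core is absent. Matches to ACGTG are in capitals, and each window ends at the base before the start.
CA9, chr9:35673678-35673927, plus strand: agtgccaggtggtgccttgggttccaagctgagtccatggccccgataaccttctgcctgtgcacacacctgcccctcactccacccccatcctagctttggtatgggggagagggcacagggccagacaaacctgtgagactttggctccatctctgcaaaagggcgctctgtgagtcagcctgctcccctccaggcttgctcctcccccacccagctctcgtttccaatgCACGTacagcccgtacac
SLC16A3, chr17:82228792-82229041, plus strand: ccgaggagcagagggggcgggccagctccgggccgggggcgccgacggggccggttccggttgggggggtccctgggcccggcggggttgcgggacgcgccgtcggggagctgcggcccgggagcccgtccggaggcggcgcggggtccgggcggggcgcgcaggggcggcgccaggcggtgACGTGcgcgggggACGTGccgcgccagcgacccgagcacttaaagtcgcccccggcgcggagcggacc
BSG, chr19:572346-572595, plus strand: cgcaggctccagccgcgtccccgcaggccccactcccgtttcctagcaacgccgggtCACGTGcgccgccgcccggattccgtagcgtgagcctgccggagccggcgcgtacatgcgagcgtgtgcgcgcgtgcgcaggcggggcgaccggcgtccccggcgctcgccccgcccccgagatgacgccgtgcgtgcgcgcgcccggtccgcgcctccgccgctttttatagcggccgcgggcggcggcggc
CA12, chr15:63381847-63382096, minus strand: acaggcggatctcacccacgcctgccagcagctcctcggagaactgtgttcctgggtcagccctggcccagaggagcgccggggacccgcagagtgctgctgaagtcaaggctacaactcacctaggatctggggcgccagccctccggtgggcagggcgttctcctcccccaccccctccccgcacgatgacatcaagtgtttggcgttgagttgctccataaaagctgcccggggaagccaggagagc

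The CA9 match lay on the reverse strand, with its first base 18 bases before the start. SLC16A3 had matches on the forward strand at 68 and 55 bases before the start. In BSG the letters of both strands overlapped, at 192 and 193 bases, and form CACGTG, the E-box that other basic helix-loop-helix factors also bind. A match describes these letters only and says nothing of whether a factor was bound in the cells.

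The carbonic anhydrases on the cell surface rose more than any other member. CA9, which marks hypoxic tumour cells, lies at chr9:35673915-35681156 on the plus strand in the deposited coordinates (hg19 in the submitters' processing notes). Its level was 688, 661 and 588 TMM-scaled CPM in untreated replicates 1, 2 and 3 and 1573, 1825 and 1612 in r-CRMP2 replicates 1, 2 and 3. Every r-CRMP2 library had more than 2 times the CPM of every untreated library. The mean went from 646 ± 52.2 to 1670.0 ± 135 CPM (SD, n = 3 libraries a group), a log2 fold change of 1.37 with an SE of 0.10 (edgeR adjusted p = 2.06e-11). With library size alone the log2 fold change was 1.06 (adjusted p = 4.28e-10).

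CA12 (chr15:63613577-63674365, minus strand) encodes the related enzyme that many epithelial tumours carry. It measured 135, 132 and 119.7 CPM in the untreated libraries and 250.3, 266 and 282 CPM in the r-CRMP2 libraries. The groups were well apart, and the lowest r-CRMP2 library was nearly double the highest untreated one. The log2 fold change was 1.05 with an SE of 0.07 (2.07-fold, adjusted p = 2.03e-10), from 129 ± 7.98 to 266 ± 16.0 CPM. It sat close to the threshold of 1: it was 0.74 with library size alone and 0.998 without untreated replicate 3, while the adjusted p stayed under 0.05 in both.

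CA9 and CA12 were also compared inside the same library, which no scaling between libraries touches. The log2 ratio of their TPM values, which are per transcript length, was 4.41, 4.38 and 4.35 in untreated and 4.71, 4.84 and 4.57 in r-CRMP2 libraries. The 2 groups did not overlap, with CA9 at 20.4 to 21.3 times CA12 before and 23.7 to 28.5 times after. The difference was 0.32 with an SE of 0.08 (two-sided exact permutation test, p = 0.10, adjusted over 3 ratios 0.15), and 0.10 is the smallest p that 3 against 3 libraries allow.

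CA2, the abundant cytosolic enzyme of red cells and kidney, was hardly detected. It lies at chr8:86376131-86393721 on the plus strand. Its counts were 4, 6 and 1 in untreated and 6, 8 and 0 in r-CRMP2 libraries, and it did not reach the count filter. The groups overlap, and no difference was detectable at this depth. The count of 0 in r-CRMP2 replicate 3 allows up to 3 counts, or 0.131 CPM, counting error only.

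Among the transporters, SLC16A1 and SLC16A3 rose and SLC16A7 fell. SLC16A1 (chr1:113454469-113498975, minus strand) encodes MCT1, the widely expressed lactate carrier, and read 195, 191 and 195 CPM in untreated and 304, 337 and 308 CPM in r-CRMP2 libraries. The untreated libraries were nearly level, and each r-CRMP2 library was far above them. The log2 fold change was 0.71 with an SE of 0.05 (1.64-fold, adjusted p = 1.23e-08), and 0.40 with library size alone (adjusted p = 7.40e-06). The pseudogene AKR7A2P1 overlaps it on the opposite strand and held 366 counts over the 6 libraries, 1.03% of those of SLC16A1, and whether strand was used in counting is not given in the sources used here.

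SLC16A3 (chr17:80186282-80197375, plus strand) encodes MCT4, the carrier of cells that release much lactate. It measured 758, 688 and 622 CPM in untreated and 867.7, 933 and 967 CPM in r-CRMP2 libraries, with no overlap. Untreated replicate 1 was the highest and replicate 3 the lowest of their group. The gap from untreated replicate 1 to the lowest r-CRMP2 library was narrower than that spread. The log2 fold change was 0.42 with an SE of 0.09 (1.34-fold, adjusted p = 6.27e-05). This call rested on the scaling: with library size alone the value was 0.11 (adjusted p = 0.133), and the TPM values of the groups overlapped, at 613 to 732 and 694 to 765.

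SLC16A7 (chr12:59989821-60183636, plus strand) encodes MCT2, a high-affinity carrier usually seen in cells that take lactate and pyruvate up. It was at 13.6, 13.2 and 13.3 CPM in untreated and 11.2, 9.91 and 11.5 CPM in r-CRMP2 libraries. Each r-CRMP2 library was below each untreated one, by a smaller step than in the other genes called. The log2 fold change was -0.30 with an SE of 0.07 (adjusted p = 0.0200), and -0.61 with library size alone. Without r-CRMP2 replicate 2, the lowest library, it was -0.23 and no longer called (adjusted p = 0.0829).

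BSG (chr19:571277-583493, plus strand), also known as CD147, is the membrane glycoprotein that MCT1 and MCT4 need to reach the cell surface. It read 1259.7, 1295 and 1230.4 CPM in untreated and 2310.3, 2586 and 2418 CPM in r-CRMP2 libraries. The groups were far apart beside the spread within each. The mean went from 1262 ± 32.5 to 2438 ± 139 CPM, a log2 fold change of 0.95 with an SE of 0.05 (1.93-fold, adjusted p = 4.34e-10), and 0.64 with library size alone. An antisense transcript, ENSG00000267751.1, held 1058 counts over the 6 libraries, 0.412% of those of BSG.

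The balance of the MCT4 and MCT1 transcripts was read inside each library in the same way, and SLC16A3 stood above SLC16A1 in all 6. The log2 ratio of SLC16A3 to SLC16A1 in TPM was 2.87, 2.76 and 2.59 in untreated and 2.42, 2.38 and 2.56 in r-CRMP2 libraries. The groups were separated only narrowly, between untreated replicate 3 and r-CRMP2 replicate 3. The difference was -0.29 with an SE of 0.10 (two-sided exact permutation test, p = 0.10, adjusted 0.15), again the smallest p the design allows.

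**Figure D2:**
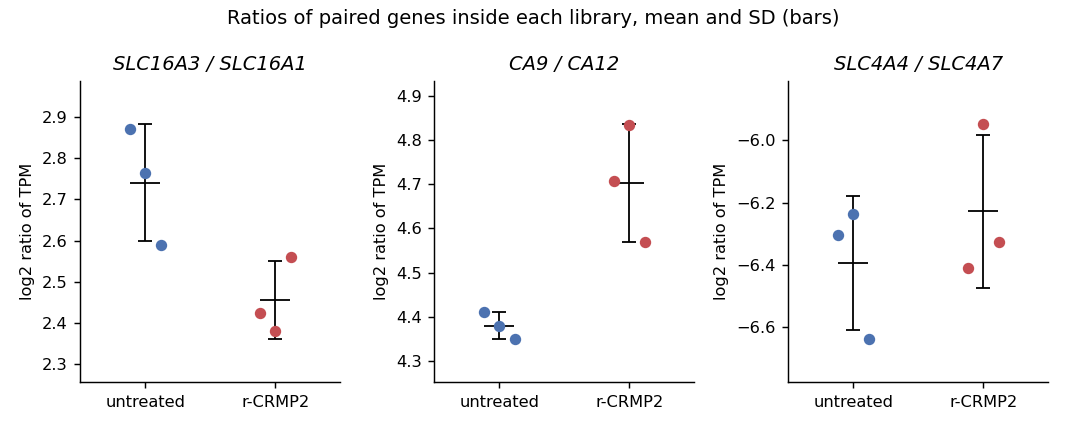
Log2 ratio of the TPM values of 2 genes inside each library (vertical axes), for 3 pairs, in the untreated and r-CRMP2 groups. Points are the 3 libraries of a group, bars the mean and SD. The groups are apart for SLC16A3 to SLC16A1 (difference -0.29) and CA9 to CA12 (difference 0.32), and overlap for SLC4A4 to SLC4A7 (difference 0.16).

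Of the bicarbonate cotransporters, only SLC4A7 was called. SLC4A7 (chr3:27414212-27525911, minus strand) encodes NBCn1, the electroneutral carrier, and measured 75.9, 69.4 and 67.2 CPM in untreated and 102, 86.5 and 93.3 CPM in r-CRMP2 libraries. All 3 r-CRMP2 libraries were higher, with r-CRMP2 replicate 1 the highest. The log2 fold change was 0.41 with an SE of 0.09 (1.33-fold, adjusted p = 7.76e-05). As with SLC16A3, library size alone left 0.10 (adjusted p = 0.260), and the TPM values overlapped, at 20.0 to 22.1 and 19.4 to 25.2.

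SLC4A4 (chr4:72053003-72437804, plus strand), the electrogenic carrier NBCe1, was near the detection limit. It had 26, 22 and 18 counts in untreated and 25, 27 and 26 counts in r-CRMP2 libraries, or 0.658 to 0.935 and 1.13 to 1.36 CPM. The CPM values did not overlap while the raw counts and TPM did. The log2 fold change of 0.55 with an SE of 0.16 did not pass (unadjusted p = 0.0983, adjusted p = 0.146). The log2 ratio of SLC4A4 to SLC4A7 differed by 0.16 with an SE of 0.19 (two-sided exact permutation test, p = 0.60).

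Counting all 8 genes tested, the TMM-scaled CPM of the groups did not overlap in 8, with 7 higher and 1 lower in r-CRMP2, beside 30.9% and 33.3% of all genes tested. On the TPM scale 4 were apart on the higher side (SLC16A1, BSG, CA9 and CA12), 1 on the lower side (SLC16A7) and 3 overlapped (SLC16A3, SLC4A4 and SLC4A7). CPM by library size alone also left 4 apart on the higher side. SLC16A1, BSG, CA9 and CA12 were called higher under every scaling, tool and left-out library.

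**Figure D3:**
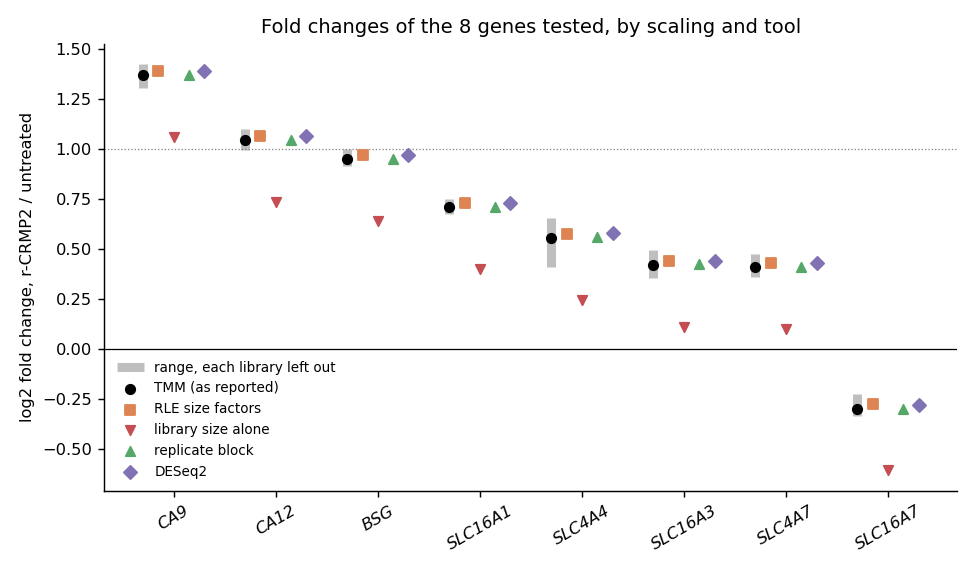
Log2 fold change of the 8 genes tested, r-CRMP2 against untreated (vertical axis), with TMM, RLE size factors, library size alone, the replicate block and DESeq2 (symbols), and the range when each library was left out in turn (grey bars). The dotted line is a log2 fold change of 1. Library size alone lowers all 8 values and leaves SLC16A3 at 0.11 and SLC4A7 at 0.10.

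Per transcript length, 3 of the 9 genes were among the most abundant transcripts of the cells. In TPM the untreated order was BSG (1286 ± 43.9), CA9 (1011 ± 75.8), SLC16A3 (676 ± 60.0), SLC16A1 (101 ± 0.904), CA12 (48.5 ± 2.83), SLC4A7 (21.0 ± 1.07) and SLC16A7 (2.63 ± 0.0043). SLC4A4 and CA2 followed at 0.252 ± 0.0445 and 0.208 ± 0.154, and these 2 neighbours alone overlapped. Among all listed genes CA9 ranked between 79 and 142 over the 6 libraries, BSG between 86 and 111, and SLC16A3 between 171 and 203.

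After r-CRMP2 the first 2 places of that order changed over. CA9 stood at 2082 ± 72.7 TPM and BSG at 1979 ± 21.0 TPM, with the lowest CA9 library at 2034 and the highest BSG library at 1998. SLC16A3 (722 ± 37.4), SLC16A1 (132 ± 1.87), CA12 (80.0 ± 5.11), SLC4A7 (22.3 ± 2.86) and SLC16A7 (1.71 ± 0.201) kept their places. The 2 lowest, SLC4A4 (0.296 ± 0.0187) and CA2 (0.263 ± 0.234), overlapped again.

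**Figure D4:**
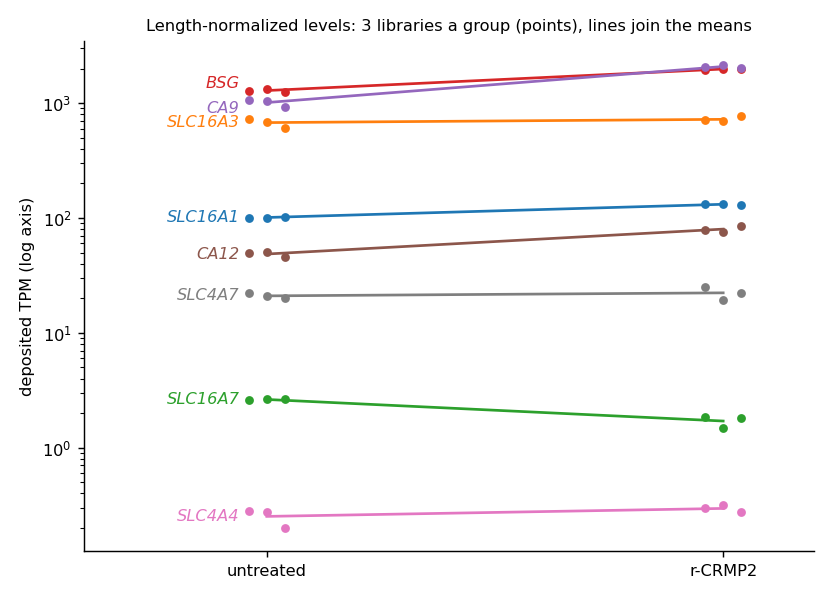
Deposited TPM (log axis) of the 8 genes other than CA2 in the untreated and r-CRMP2 groups. Points are libraries, 3 a group, and lines join the group means. CA9 passes BSG, at 2082 against 1979 TPM after r-CRMP2, and the others keep their order.

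CA9 had the largest log2 fold change of the 9, and the genes whose pattern over the 6 libraries came closest to it were listed. Likeness was the root mean square difference of log2 CPM, each gene taken relative to its untreated mean, over 16221 other genes. The closest was DBP, a circadian transcription factor, at 0.03, with a mean of 18.0 CPM in untreated and 47.6 CPM in r-CRMP2 libraries. GAPDH, the glycolytic dehydrogenase, also came to 0.03, from 6840.0 to 17510 CPM. UBE2C (0.04), CDKN1B (0.05) and RIOK3 (0.06) were next, beside a median of 1.01 over all genes.

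Other genes of these families did not follow 1 direction. The TMM counts of each list below stand beside 28.2% of all genes tested called higher and 30.1% called lower. The other SLC16 genes with the sodium-coupled lactate carriers SLC5A8 and SLC5A12 and the MCT2 chaperone EMB made a list of 14, of which 6 were tested, 1 was higher and 3 were lower, with a median log2 fold change of -0.72 beside -0.03 over all genes. SLC16A6 rose (log2 fold change 0.48, SE 0.07, adjusted p = 5.44e-06). SLC16A5 fell from 9.41 to 2.35 CPM (-2.00, SE 0.25, adjusted p = 2.10e-08), SLC16A14 from 6.50 to 2.36 CPM (-1.47, SE 0.30) and SLC16A13 from 1.44 to 0.303 CPM (-2.26, SE 0.40). These 3 falls had at least as low a value with library size alone. Of 12 other carbonic anhydrases 4 were tested, and CA5B, a mitochondrial form, was called higher at 7.21 and 9.98 CPM (0.46, SE 0.19, adjusted p = 0.0106), a call lost with library size alone, under which CA11 and CA14, named after their values were seen, were called lower. The median of those 4 was 0.03.

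Of the other bicarbonate and anion transporters, more were lower than higher. Of 17 listed 10 were tested, 2 were higher and 5 lower, with a median of -0.46. SLC26A6, a chloride bicarbonate exchanger, went from 75.3 to 162 CPM (1.11, SE 0.09, adjusted p = 2.00e-10) and SLC4A5 from 9.87 to 13.0 CPM (0.40, SE 0.10), which was not called with library size alone. SLC26A2, a sulfate carrier, fell from 35.1 to 11.5 CPM (-1.61, SE 0.16, adjusted p = 2.80e-10) and SLC4A2, the chloride bicarbonate exchanger AE2, from 254 to 145 CPM (-0.81, SE 0.07, adjusted p = 5.02e-09). SLC4A3, SLC4A11 and SLC26A11, named after their values were seen, were the other 3 called lower.

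Sodium-proton exchangers and their cofactors split as well. Of 15 listed 11 were tested, with 3 higher and 4 lower and a median of -0.12. SLC9A8 fell from 9.59 to 3.33 CPM (-1.52, SE 0.20, adjusted p = 1.55e-07). The scaffold gene SLC9A3R2 fell by a log2 fold change of -0.29 (SE 0.06). SLC9B2 was also called lower, and SLC9A3 and CHP1 were called higher, all 3 named after their values were seen. SLC9A7, of the Golgi, rose from 20.8 to 29.4 CPM (0.50, SE 0.14, adjusted p = 2.62e-04). With library size alone 7 were called lower and the 3 rises lost their calls, and SLC9A3 and CHP1 turned negative (-0.10 and -0.09, not called).

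The V-ATPase, the proton pump of lysosomes, was the largest list, with 25 genes listed and 23 tested. Of these 11 were higher and 7 lower, with a median of 0.14, and with library size alone 6 were higher and 8 lower. ATP6V1C2 rose from 89.1 to 146 CPM (0.72, SE 0.10, adjusted p = 1.26e-07) and TCIRG1 from 67.4 to 100.4 CPM (0.57, SE 0.06, adjusted p = 4.06e-07). TCIRG1 encodes 1 of the 4 forms of the a subunit, which sits in the membrane, and the other 3 forms, ATP6V0A1, ATP6V0A2 and ATP6V0A4, were called lower. ATP6V0A1 fell from 37.8 to 19.8 CPM (-0.93, SE 0.08, adjusted p = 1.54e-08) and ATP6V0A2 from 28.3 to 15.3 CPM (-0.89, SE 0.11, adjusted p = 2.46e-07). ATP6V0A4, named after its values were seen, went from 2.89 to 1.62 CPM (-0.85, SE 0.31, adjusted p = 0.00759).

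Of the genes that make or move lactate and pyruvate, 8 were listed and 5 tested, with 3 called higher, the other 2 not called, and a median of 0.17. LDHA, which turns pyruvate into lactate, went from 1931 to 2929 CPM (0.60, SE 0.09, adjusted p = 1.06e-06), and stayed higher with library size alone (0.29, adjusted p = 3.34e-04). The other genes called here depended on the scaling. LDHB was called higher with TMM (0.17, SE 0.05, adjusted p = 0.0290) and lower with library size alone (-0.14, adjusted p = 0.0231), and MPC2, of the mitochondrial pyruvate carrier, went from 0.24 to -0.07 and lost its call. Of 10 acid and lactate sensing receptors and channels 3 were tested, with a median of 0.20, and ASIC1, an acid-sensing ion channel, was called higher with TMM (0.20, SE 0.06, adjusted p = 0.0446) but turned negative with library size alone (-0.11, not called). The lactate receptor HCAR1, named after its values were seen, was at 0.809 and 1.28 CPM and was not called (adjusted p = 0.143).

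**Figure D5:**
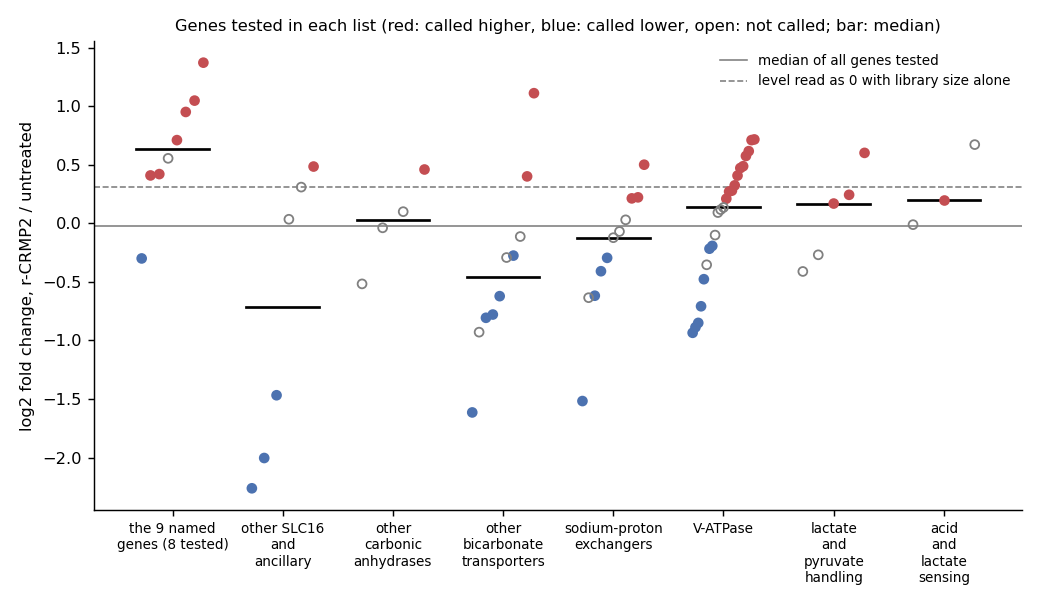
Log2 fold change, r-CRMP2 against untreated (vertical axis), of each gene tested in the 9 genes described and in 7 further lists (horizontal axis). Filled red points were called higher, filled blue points lower and open points not called at an adjusted p of 0.05, and black bars are medians. The median is 0.63 for the 8 genes tested and lies between -0.72 and 0.20 in the other lists, and points between 0 and the dashed grey line change sign with library size alone.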

How the data were processed

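RNA from 3 untreated and 3 r-CRMP2-treated A2780 samples was enriched for poly(A) and sequenced as paired ends. The submitters' processing notes name FastQC, HISAT2, DESeq2 and hg19, while the counting tool, the annotation and the use of strand are not given in the sources used here. The authors deposited, for each sample, raw counts on 44591 genes and TPM values, which differed by at most 4.72e-06 from the counts divided by the deposited gene lengths and rescaled. In R 4.3.3, edgeR 4.0.16 (with limma 3.58.1) was used for the quasi-likelihood fit of the counts after TMM and filterByExpr, made on all 16222 genes kept, with Benjamini-Hochberg adjustment over all of them. TPM values served for levels between genes and for ratios inside a library, which were compared with an exact permutation test. SE is from the spread of log2 CPM between libraries (prior count 2). Depth was 21888530 to 25711353 counts a library. Libraries of a group differed by more than sampling noise (chi-square 3.62 to 10.3 per degree of freedom), so all 6 were kept as separate libraries.

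The genes, the lists and the rules were chosen with earlier results of these data known. All 9 genes are named, with, from each further list, up to 4 called genes of smallest adjusted p, plus LDHA and LDHB, and the 5 genes most like the member of largest change. 1 gene that meets this rule is not reported here. Alternatives were RLE size factors, library size alone, no filter, at least 10 counts in every library, DESeq2 1.42.0, the replicate block and leaving out each library. The scripts were tested on simulated counts. Promoter sequences are from RefSeq (GRCh38.p14), and gene positions are as deposited.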

Additional observations from a re-analysis of the deposited data

How the results depend on the processing

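Of 96 values of single genes under the 12 alternatives, 93 kept their direction and their side of the adjusted p of 0.05. The other 3 were SLC16A3 and SLC4A7 with library size alone and SLC16A7 without r-CRMP2 replicate 2. Library size alone also moved the counts over all genes from 4574 higher and 4875 lower to 2171 and 8449, and, past both thresholds, from 831 and 1437 to 489 and 2553. Under it 1 of the 9 genes (CA9) passed both thresholds and the median of the 8 tested was 0.32. At least 10 counts in every library left 946 genes lower past both thresholds, from the smaller set tested. Leaving out each library in turn gave 0 to 1 of the genes lower (0 without r-CRMP2 replicate 2), and 1 to 2 past both thresholds (1 without untreated replicate 3). Added after seeing the data, library size alone on the further lists gave 0 higher and 2 lower carbonic anhydrases, 1 higher bicarbonate transporter, 0 higher and 7 lower sodium-proton exchangers, 6 higher V-ATPase genes, 1 higher and 2 lower lactate and pyruvate genes, and 0 higher sensing genes.

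The labels number the libraries of both groups 1 to 3, but same-numbered libraries did not deviate together (correlations across genes of -0.02, 0.0038 and -0.03). With these numbers as a replicate block, 4456 genes were higher and 4774 lower, 819 and 1437 past both thresholds, and 6 of the 9 genes were higher, 1 lower and 2 past both, with a median of 0.64. In the further lists the block left 4 bicarbonate transporters lower, 2 lactate and pyruvate genes higher and 0 sensing genes higher. For the ratios, differences within a number gave an exact p no lower than 0.25. At about 20 counts a library, as in SLC4A4, depth limits what can be called, and p-values of the ratios cannot pass 0.05 with 3 libraries a group.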

Other observations

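The V-ATPase holds 1 of 4 alternative a subunits, and the shares of these 4 transcripts, singled out after their values were seen, did not overlap between the groups. TCIRG1, the a3 subunit known from osteoclasts, made up 63.2%, 61.8% and 57.4% of their summed TPM in untreated replicates 1 to 3 and 81.5%, 81.7% and 80.8% in r-CRMP2 replicates 1 to 3. These shares are taken inside a library and do not depend on the scaling between libraries. The mean went from 60.8% ± 3.02 to 81.3% ± 0.501 (SD, n = 3 libraries a group). ATP6V0A1 went from 25.0% ± 1.86 to 11.7% ± 0.676, ATP6V0A2 from 11.9% ± 1.38 to 5.76% ± 0.261 and ATP6V0A4 from 2.37% ± 0.244 to 1.19% ± 0.458. The shares of the 4 sum to a fixed total, so a rise in 1 lowers the rest.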
